A study of Mus musculus with 12 samples.

Results

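Rpl3 and Rpl3l encode alternative forms of the same protein of the large cytosolic ribosomal subunit. Both were taken by their gene symbols from a table of 3939 listed genes, so they are 2 of 3939. They were set against every other listed symbol that begins like a cytosolic ribosomal protein name. That pattern found 2 further ribosomal protein genes, Rpl13a and Rpl39, and 10 symbols of kinases and pseudogenes. The pair was chosen by its log2 fold changes and adjusted p-values in this table, so these are given as a description and no test was made on them.

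The study sequenced RNA from the whole myocardium of the left ventricle. The mice were wild type, a C57Bl6J/129X1 hybrid, and had received AngII/PE or NaCl by infusion over 3 days. AngII/PE usually stands for angiotensin II with phenylephrine, agents that raise blood pressure and drive growth of heart muscle. The labels give 12 libraries, 3 from AngII/PE females, 3 from AngII/PE males, 3 from NaCl females and 3 from NaCl males, without naming an age, a batch or a separate mouse for each library. The values analysed are the authors' comparison of AngII/PE with NaCl myocardium, 6 libraries of each by the labels, which does not separate females from males. Its fold changes are headed as averages, and what was averaged is not stated. Values per library, depths and expression levels were not analysed here, so no replicate spread stands beside any fold change and the labelled tissue could not be checked against the levels of its markers.

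Ribosomal protein L3 reaches from the surface of the large subunit towards the site where peptide bonds are made. Nearly all tissues use the form encoded by Rpl3. Rpl3l is the form of striated muscle, in the adult heart and skeletal muscle. Inherited variants of human RPL3L are known in a severe dilated cardiomyopathy of early life, and mice that lack Rpl3l are known to carry more Rpl3 in the heart.

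The paralogs moved in opposite directions. Rpl3 rose 2.08-fold, a log2 fold change of 1.05 with an adjusted p of 1.5e-85 in the authors' deposited table. Rpl3l fell to 0.31 of its NaCl level, a log2 fold change of -1.69 with an adjusted p of 1.13e-110 in the authors' deposited table. The ratio of Rpl3 to Rpl3l was therefore 6.7 times as high in AngII/PE myocardium as in NaCl myocardium, a difference of 2.74 between the log2 fold changes of the authors' deposited table. This is a ratio of changes and says nothing of which transcript was the more abundant.

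The rise of Rpl3 was of middling size among the listed rises, and the fall of Rpl3l was among the larger listed falls. Listed rises begin at a larger size than listed falls, with 5th percentiles by size of 0.63 and -0.41. Between sizes of 0.25 and 0.5, 440 falls but only 5 rises were listed. Ranks, medians and counts of the rises are therefore not on a like scale with those of the falls. By size Rpl3 was number 1122 of 2213 rises, close to the median listed rise of 1.06 in the authors' deposited table. Rpl3l was number 49 of 1726 falls, whose median was -0.63, and 2.84% of the falls were of at least its size in the authors' deposited table. Ordered by adjusted p, Rpl3 was number 234 and Rpl3l number 146 of the 3939 genes of the authors' deposited table. Of all listed genes 30.7% had a log2 fold change of at least 1, as Rpl3 did, and 6.96% one of at most -1, as Rpl3l did, in the authors' deposited table.

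**Figure D1:**
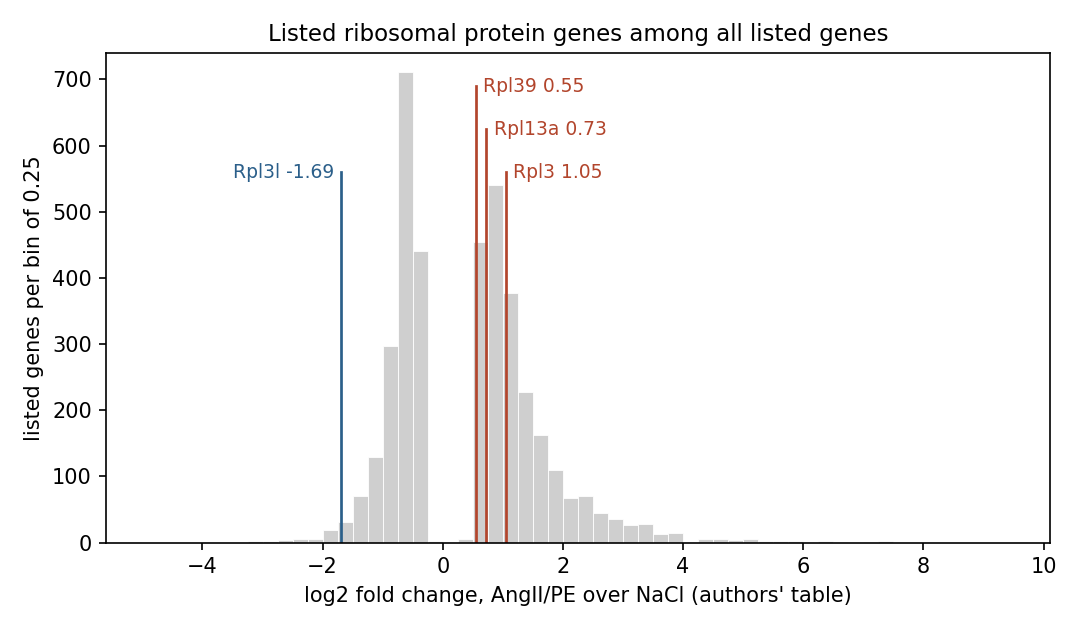
Numbers of listed genes (vertical axis) by log2 fold change of AngII/PE over NaCl in bins of 0.25 (horizontal axis), from the authors' deposited table; coloured lines mark the 4 listed ribosomal protein genes. Rpl3 at 1.05 lies near the middle of the rises, with Rpl13a at 0.73 and Rpl39 at 0.55 near their lower edge, while Rpl3l at -1.69 lies in the tail of the falls.

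The genes lie on different chromosomes. Rpl3 (ENSMUSG00000060036.14) occupies chromosome 15, 80077791 to 80091868 on the minus strand, and Rpl3l (ENSMUSG00000002500.15) chromosome 17, 24727820 to 24736143 on the plus strand, by GENCODE M21 (build GRCm38, which mm10 also names). Both are protein coding. The longest coding transcript models each have 10 exons, and their coding sequences are 1212 bases long in Rpl3 and 1224 in Rpl3l, or 403 and 407 codons before the stop. All 9 exon junctions of the Rpl3 coding sequence fall at the same aligned base as a junction of Rpl3l, counting from the start codon. The exon layout is thus shared, although the bases between the junctions have diverged.

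Over 1210 aligned coding bases, 896 were identical between Rpl3l and Rpl3, or 74%. Of the 314 differences, 184 (58.6%) lay at the third position of a codon, where a change often leaves the amino acid the same. Windows of 90 bases ranged from 66.7% to 82.2% identity, with a median of 74.4%. The longest run of identical bases was 22. The most alike window that could be aligned without gaps spans coding bases 691 to 780. It is shown with the 5 pseudogenes described further on, because it displays how a paralog and a copy differ. Capitals mark bases that differ from Rpl3, and all sequences are spliced, sense strand, from GENCODE M21.
Rpl3: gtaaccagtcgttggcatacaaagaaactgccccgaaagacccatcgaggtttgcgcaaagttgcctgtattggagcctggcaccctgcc
Rpl3l: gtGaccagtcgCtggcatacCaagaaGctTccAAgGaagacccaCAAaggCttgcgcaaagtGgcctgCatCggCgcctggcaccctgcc
Rpl3-ps1: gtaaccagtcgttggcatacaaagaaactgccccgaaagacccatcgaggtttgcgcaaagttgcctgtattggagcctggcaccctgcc
Gm5879: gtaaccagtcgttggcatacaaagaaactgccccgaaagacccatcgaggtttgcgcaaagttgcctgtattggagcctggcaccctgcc
Rpl3-ps2: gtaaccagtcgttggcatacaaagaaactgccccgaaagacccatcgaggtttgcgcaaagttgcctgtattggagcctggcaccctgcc
Gm12816: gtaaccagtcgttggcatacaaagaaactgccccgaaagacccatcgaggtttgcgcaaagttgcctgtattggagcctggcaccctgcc
Gm6035: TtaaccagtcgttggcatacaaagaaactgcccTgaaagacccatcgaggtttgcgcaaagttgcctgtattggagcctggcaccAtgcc
Even here Rpl3l differed from Rpl3 at 16 of 90 bases, spread over the window. Among the pseudogenes, Gm6035 differed at 3 bases and the other 4 at none. Windows 181 to 270 and 841 to 930 were equally the least alike, at 66.7%. The first of them, coding bases 181 to 270 of both genes, shows this other extreme, with 30 differences.
Rpl3: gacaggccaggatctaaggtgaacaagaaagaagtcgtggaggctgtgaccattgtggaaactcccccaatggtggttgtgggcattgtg
Rpl3l: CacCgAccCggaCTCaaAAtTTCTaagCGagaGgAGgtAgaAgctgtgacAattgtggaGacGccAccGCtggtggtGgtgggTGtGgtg

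**Figure D2:**
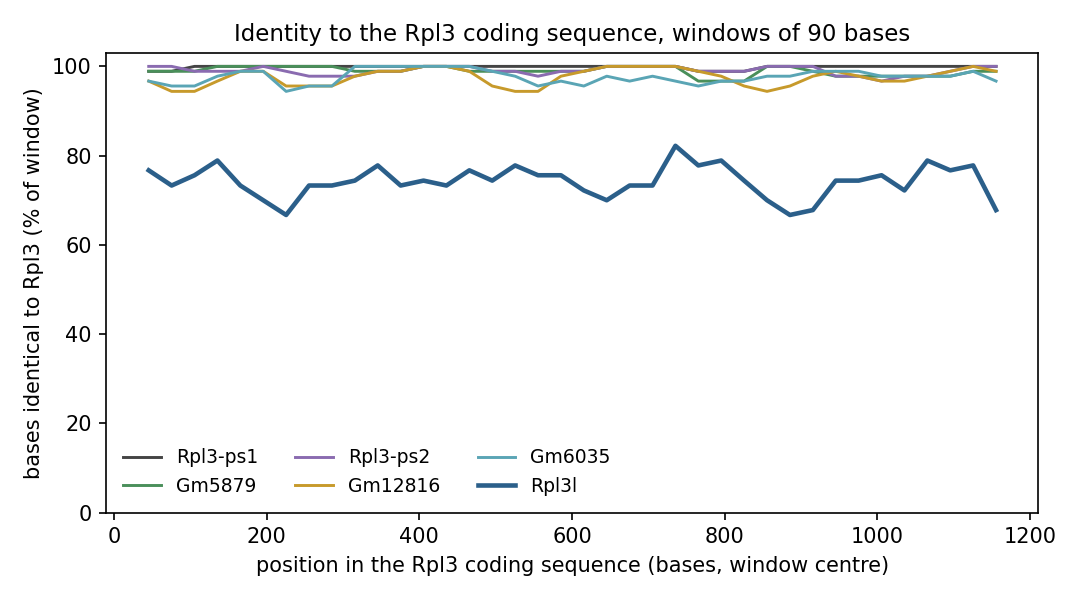
Percentage of bases identical to the Rpl3 coding sequence (vertical axis, from 0) in windows of 90 bases placed every 30 bases (horizontal axis, window centre), for Rpl3l and for the 5 listed Rpl3 pseudogenes. Rpl3l runs between 66.7% and 82.2% along the whole length, while each pseudogene stays at 94.4% or more.

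This divergence matters for the counts, because reads can be confused only where sequences match. No 25-base stretch of any annotated Rpl3l transcript was found in an Rpl3 transcript, nor in a transcript of any other gene of GENCODE M21, read on the sense strand. Rpl3 is different. Processed pseudogenes, which are intronless genomic copies of spliced transcripts, repeat most of it. Of the 1302 stretches of 50 bases in the full-length Rpl3 transcript, 85.6% also stand in another annotated gene, and of the stretches of 100 bases 79.4%. The sources used here do not say how reads that fit several places were counted.

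The table lists 5 of these pseudogenes, and all were higher by about as much as Rpl3. Rpl3-ps1, on chromosome X, had a log2 fold change of 1.11 and an adjusted p of 4.97e-17 in the authors' deposited table. It is 99.8% identical to the Rpl3 coding sequence, with 2 differing bases among 1209 aligned and 3 bases of Rpl3 in gaps. Rpl3-ps2, also on chromosome X, had a log2 fold change of 1.03 (adjusted p = 1.54e-07) in the authors' deposited table. The other 3 carry only provisional symbols. Gm5879 on chromosome 6 had a log2 fold change of 1.16, Gm6035 on chromosome 13 one of 1.12 and Gm12816 on chromosome 4 one of 1.22 in the authors' deposited table. The largest difference of any of the 5 from the log2 fold change of Rpl3 was 0.16.

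In the annotation, 26 pseudogenes share at least 1 stretch of 50 bases with Rpl3. The 5 listed ones are the first 5 in order of how much they share. Of the 50-base stretches of Rpl3-ps1, 91.4% were found in Rpl3, and of those of Gm6035, 27.2%. The next, Gm5850, shares 19.6% and had no value analysed here. Whether the pseudogenes are transcribed in heart or were assigned reads of Rpl3 was not tested. If reads were shared, the value of Rpl3 stands for Rpl3 and its copies together, while that of Rpl3l stands for Rpl3l alone.

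Other translation genes had listed pseudogenes as well. Eef1a1, which encodes the factor that delivers aminoacyl-tRNA to the ribosome, rose with a log2 fold change of 1.29 (adjusted p = 8.78e-170) in the authors' deposited table. Its 9 listed pseudogenes ran from 0.86 to 1.38 in the authors' deposited table. For Pabpc1, the poly(A)-binding protein gene, the log2 fold change was 0.93, against 0.76 and 0.92 for its 2 listed pseudogenes in the authors' deposited table. Eif1, an initiation factor gene that helps to select the start codon, was lower at -0.47, and its 2 pseudogenes were at -0.47 and -0.41 in the authors' deposited table. Counting Rpl39 as well, the 19 listed pseudogenes of these 5 listed parents had the sign of the parent, 17 higher and 2 lower. Of all listed genes 56.2% were higher and 43.8% lower. Pseudogenes sharing a 50-base stretch with the parent were listed in 9 of 18 cases for Eef1a1 and 2 of 6 for Pabpc1. For Rpl3 they were listed in 5 of 26 cases, for Eif1 in 2 of 17 and for Rpl39 in 1 of 8. The others had no value, so the shared sign holds for the listed ones only. The share listed of all annotated pseudogenes was not counted. Of the pseudogenes that share a 50-base stretch with Rpl13a or Eif1a, 5 and 4 in number, none was listed, although these parents were. A further 10 listed pseudogenes shared a 50-base stretch with a gene that was not listed, such as Rpl10, Rps26 and Eif4a1. Of these 10, 7 were higher and 3 lower. Among the lower is Gm11346, with only 0.072% of its 50-base stretches in Eef2k, too little to call it a copy.

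**Figure D3:**
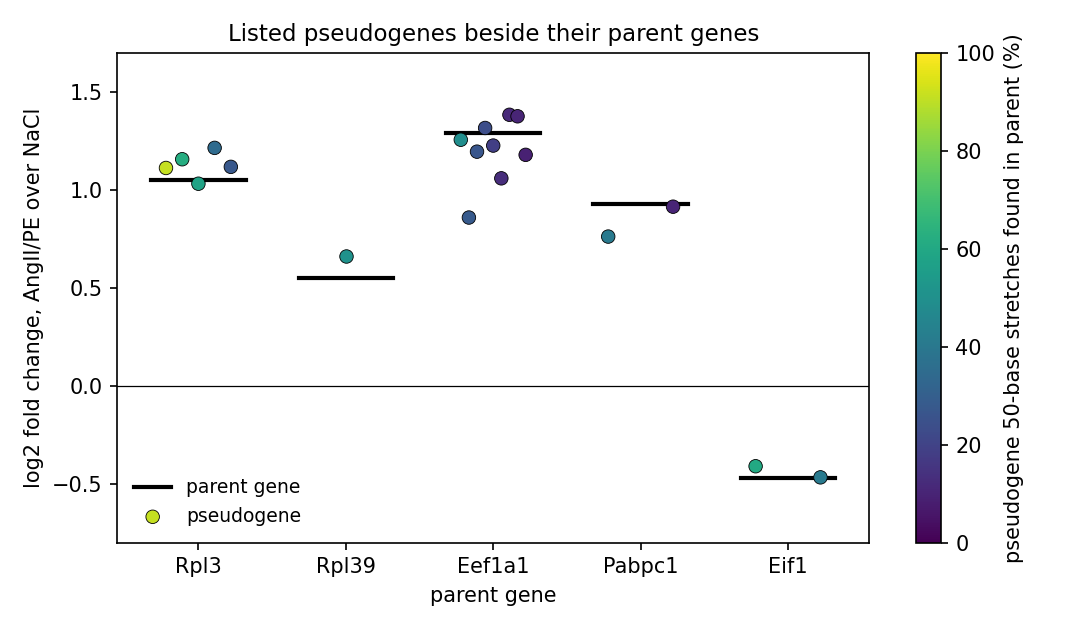
Log2 fold change of AngII/PE over NaCl in the authors' deposited table (vertical axis) for 5 parent genes (black bars) and their listed pseudogenes (points, coloured by the percentage of their 50-base stretches found in the parent). The 5 Rpl3 pseudogenes lie between 1.03 and 1.22, beside Rpl3 at 1.05, and pseudogenes of Eif1 lie below 0 with their parent.

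Few other ribosomal proteins were listed. Of 81 annotated genes of the large and small subunits, 3 were listed (3.7%), while 15.2% of all protein-coding symbols were, whether or not the heart expresses them. Besides Rpl3 these were Rpl13a, at a log2 fold change of 0.73 (1.65-fold, with an adjusted p of 5.14e-06), and Rpl39, at 0.55 (1.47-fold, with an adjusted p of 4.63e-16), in the authors' deposited table. Rpl13a is known, beyond its place in the ribosome, as a repressor of the translation of some inflammatory transcripts. Rpl39 encodes a very small protein that lines the exit tunnel for the growing peptide.

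All 3 listed subunit genes were higher, as were 56.2% of all listed genes. Rpl3 was chosen for its listed values, so it entered the 3.7% and the 3 higher genes by choice. Only Rpl13a and Rpl39 were not chosen in this way. The 3 rises were unequal, since Rpl39 sat near the smallest listed rises, with 9 rises in the authors' deposited table smaller than its own. None of the 33 small-subunit genes had a value, and unadjusted p-values of the authors' comparison were not analysed here. A gene without a value may have changed by less than the listing asked for.

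Among 9 annotated paralogs of ribosomal proteins, Rpl3l, which was chosen for its listed values, was the only one listed. That is 11.1%, beside 15.2% of all protein-coding symbols, and it rests wholly on the chosen Rpl3l. Rpl22l1, Rpl39l, Rpl10l, Rpl36al, Rpl7l1, Rps27l, Rps27rt and Rps4l had no value analysed here.

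Ribosomes are built in the nucleolus from RNA made by RNA polymerase I, with the help of many assembly factors. Of 118 assembly factor genes, 2 were listed (1.69%), beside 15.2% of all protein-coding symbols. Rrp12, whose yeast counterpart takes part in the export of both subunits, was at a log2 fold change of 0.67, and Imp3, a component of the small-subunit processome, at -0.51 in the authors' deposited table. RNA polymerase I and its initiation factors had no listed gene among 20 annotated ones. Not listed either were Grwd1, which in yeast has a counterpart that escorts newly made L3, and Mettl18, which methylates a histidine of L3. The 22 annotated genes of cytosolic aminoacyl-tRNA synthetases and their scaffold proteins also had no value analysed here.

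Translation factors were listed in 5 of 64 cases (7.81%), beside 15.2% of all protein-coding symbols. Of the 5, 4 were higher and 1 lower, while 56.2% of all listed genes were higher and 43.8% lower. Eif5a2, an isoform of the factor that helps ribosomes through difficult peptide sequences, was at a log2 fold change of 1.56, and Eif1a, an initiation factor gene, at 0.998 in the authors' deposited table. Eef1a1 and Pabpc1 were the other higher members and Eif1 the lower one. Eef1a1, Pabpc1 and most ribosomal protein transcripts belong to a class whose translation is under joint control through a pyrimidine tract at the transcript start.

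Genes that set the supply of ribosomes were listed in 6 of 35 cases (17.1%), near the 15.2% of all protein-coding symbols, 3 higher and 3 lower. Falls were listed at smaller sizes than rises, so these counts by direction are not on a like scale. Myc, a transcription factor that drives ribosome production, was at a log2 fold change of 1.55, and Mxd3, which shares its partner Max, at 2.51 in the authors' deposited table. Sesn2, an inhibitor of the mTORC1 growth kinase, was at 0.76 in the authors' deposited table. Lower were Mycn at -0.76, Maf1, a repressor of RNA polymerase III, at -0.48, and Eif4ebp2, a repressor of cap-dependent initiation, at -0.43 in the authors' deposited table. The median of the 6 was 0.16, against 0.67 over all listed genes of the authors' deposited table.

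**Figure D4:**
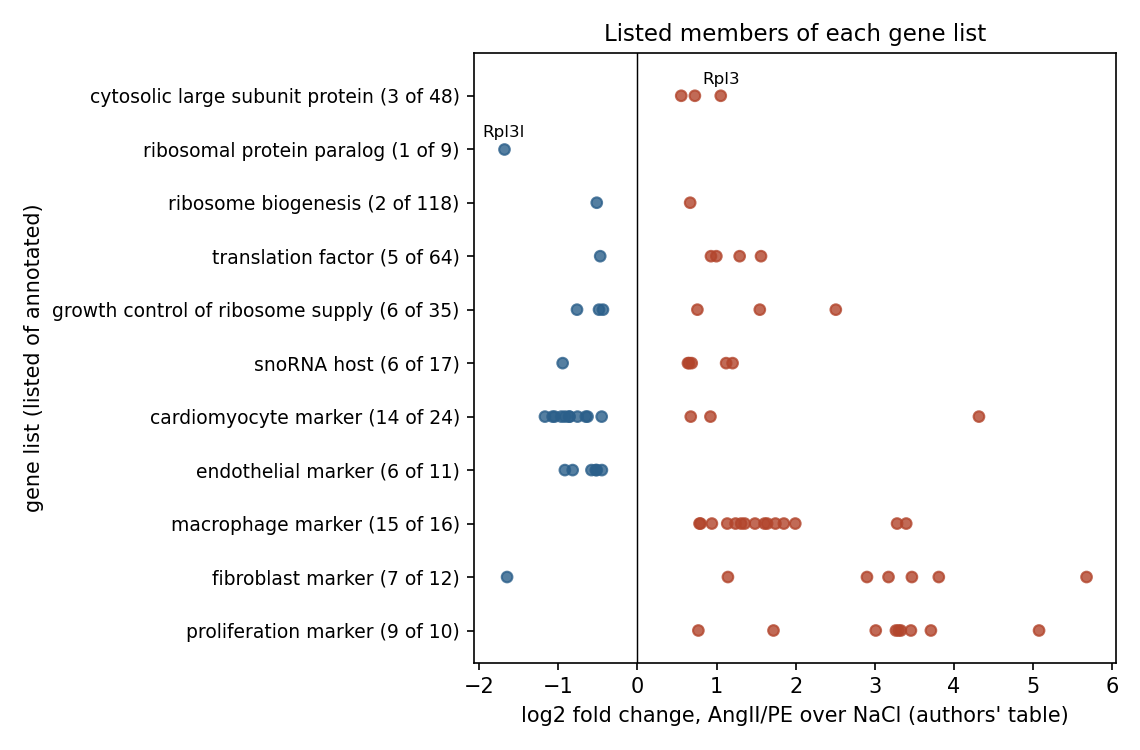
Log2 fold change of AngII/PE over NaCl in the authors' deposited table (horizontal axis) for each listed member of 11 gene lists (rows, with the number listed of the number annotated); points are red where higher and blue where lower. Rpl3l lies further left than every listed cardiomyocyte marker, while Rpl3 lies among the macrophage markers of smaller rise.

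The ventricle is a mix of cell types. In whole tissue, fewer cells of a type and less RNA per cell cannot be told apart. Of 24 cardiomyocyte markers 14 were listed, 11 lower and 3 higher, with a median log2 fold change of -0.81 in the authors' deposited table. The largest change among them was a rise, that of Nppa, which encodes atrial natriuretic peptide, at 4.32 (19.9-fold) in the authors' deposited table. Myh7, the gene of the beta myosin heavy chain, at 0.92 and Smpx at 0.67 were the other higher ones in the authors' deposited table. The largest fall was that of Myl2, which encodes a ventricular myosin light chain, at -1.17 in the authors' deposited table. Tnni3, cardiac troponin I, at -1.07 and Mb, myoglobin, at -1.05 came next in the authors' deposited table. Between Rpl3l and Myl2 the log2 fold changes differed by -0.52, and no listed cardiomyocyte marker fell by as much as Rpl3l.

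Markers of several other cell types were higher, as Rpl3 was. The share listed ran from 54.5% of the endothelial to 93.8% of the macrophage markers, against 15.2% of all protein-coding symbols. The markers were chosen with earlier results of these data known, and the 15.2% covers symbols whether or not the heart expresses them. It is therefore not a like background for the markers. Macrophage markers were listed in 15 of 16 cases, all higher, from Csf1r at 0.79 to Lgals3 at 3.40 in the authors' deposited table. After Lgals3 the largest were Ccr2, a chemokine receptor gene, at 3.28, Fcgr1 at 1.996 and Itgam at 1.85 in the authors' deposited table. The median of the macrophage markers was 1.49, and 12 of them lay above Rpl3. Proliferation markers were listed in 9 of 10 cases, all higher, with a median of 3.30 in the authors' deposited table. Bub1, a gene of the spindle checkpoint, was at 5.08, Ccnb1 at 3.71, Birc5 at 3.46 and Ccna2 at 3.33 in the authors' deposited table. Of 12 fibroblast markers 7 were listed, 6 higher and all 6 above Rpl3, while Gsn was lower at -1.65 in the authors' deposited table. The fibroblast markers Pdgfra, Tcf21, Dcn, Dpt and Ddr2 had no value analysed here. Postn, which encodes the matrix protein periostin, was at 5.68 (51.1-fold), and the collagen genes Col1a1, Col1a2 and Col3a1 at 3.81, 3.47 and 3.17 in the authors' deposited table. Endothelial markers were listed in 6 of 11 cases, all lower, from Cldn5 at -0.92 to Emcn at -0.45 in the authors' deposited table, with Kdr at -0.82, Tie1 at -0.58 and Cdh5 at -0.53 between them. The part of these cells in the changes of Rpl3 and Rpl3l was not tested.

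Other genes also come as a widely expressed and a muscle member, and 22 such pairs, that of Rpl3 and Rpl3l included, were compared. Both members were listed in 7 pairs. In 5 of these the widely expressed member was higher and the muscle member lower, and in the other 2 they moved the same way. Rpl3 and Rpl3l had the largest difference of the 7, at 2.74 on the log2 scale. The pair was chosen for its values, so its place in this order is a description.

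The pair next in size was that of phosphofructokinase, the enzyme of the committed step of glycolysis, with Pfkp at 1.56 and Pfkm at -0.66, a difference of 2.22 between log2 fold changes of the authors' deposited table. The glucose transporter genes Slc2a1 and Slc2a4 followed with a difference of 1.71, at 1.05 and -0.66 in the authors' deposited table. Those of enolase, Eno1 and Eno3, were at 0.84 and -0.58 in the authors' deposited table. The creatine kinase genes Ckb and Ckm were at 0.65 and -0.76 in the authors' deposited table. Rpl3l fell by more than the muscle member of each of these pairs, whereas the rise of Rpl3 was smaller than that of Pfkp.

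The exceptions were structural and respiratory. Cox7a2 and Cox7a1, isoforms of a cytochrome oxidase subunit, were both lower, at -0.47 and -1.40 in the authors' deposited table. The filamin genes Flna and Flnc, which cross-link actin, were both higher, at 1.04 and 1.20 in the authors' deposited table. In 12 pairs a single member was listed, the muscle member in 8 and always lower, and the widely expressed member in 4 and always higher. Over all 22 pairs, 14 of 15 listed muscle members were lower, beside 43.8% of all listed genes, and 10 of 11 listed widely expressed members were higher, beside 56.2%. The members were picked with results of this table known, and the table lists 15.2% of all protein-coding symbols. Among those 4 is the pair nearest in function to Rpl3 and Rpl3l, that of elongation factor 1A. There Eef1a1 rose and its muscle and nerve counterpart Eef1a2 had no value analysed here. Neither member of the remaining 3 pairs was listed.

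**Figure D5:**
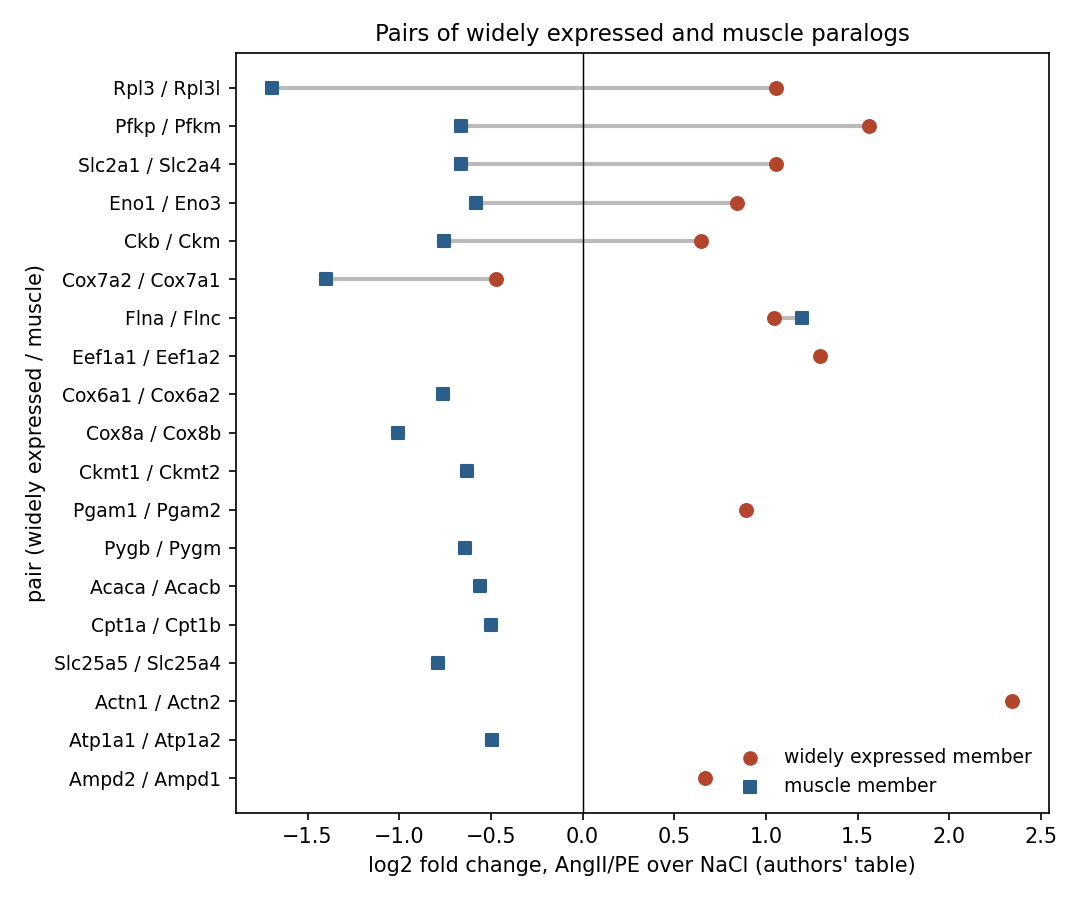
Log2 fold change of AngII/PE over NaCl in the authors' deposited table (horizontal axis) of the widely expressed member (red circles) and the muscle member (blue squares) of the 19 pairs with at least 1 listed gene; grey lines join pairs with both listed. Rpl3 and Rpl3l, at 1.05 and -1.69, are the furthest apart, and Flna and Flnc are the only joined pair with both members above 0.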

How the data were processed

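RNA of whole left ventricle was sequenced as 12 libraries, 6 AngII/PE and 6 NaCl. The authors' tools, per the submitters' processing notes, were STAR 2.4.2a, cutadapt, featureCounts, Subread and DESeq2, with build mm10. The sources used here do not give their roles, settings, annotation or handling of multiply mapping reads. The values are the authors' log2 fold changes, per the file headers averaged, of treated over control libraries, and the p-values adjusted by the authors for the false discovery rate, all below 0.05. Columns of values per library used: 0, so depth and its precision are unknown.

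No test was made here. Members and lists were chosen with earlier results of these data known. Listed members of 16 gene lists and 22 paralog pairs were counted in each direction. Transcripts and positions are those of GENCODE M21 (GRCm38), to which 3836 symbols matched once, 8 several times and 95 not at all; neighbours are from RefSeq on GRCm38.p6. Coding sequences were aligned globally with Biopython 1.88. Shared stretches were exact matches on the sense strand. Counting and alignment were tested on simulated data with known answers. Named genes were both members, every listed ribosomal protein, listed paralog pairs, listed neighbours, the 3 nearest genes by fold change, and up to 4 listed members of each list with the largest change, or all of 5 or fewer; pseudogenes, further list members and marker extremes were added after their values were seen.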

Additional observations from a re-analysis of the deposited data

How the results depend on the processing

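Subtracting 0.11, the midpoint of the 5th percentiles of listed rises and falls, left Rpl3 at 0.94 and Rpl3l at -1.80. The counts stayed the same, which was fixed beforehand, because the smallest rise among the counted genes was 0.55, that of Rpl39. An adjusted p below 0.001 kept both members in and all counts within 1.5 times. With a minimum of 1 for the size of the log2 fold change, both members stay in, but only 1 subunit gene, Rpl3, remains higher and only 1 pair, Rpl3 and Rpl3l, opposed. There translation factors number 2 higher and 0 lower, assembly factors 0 and 0, snoRNA hosts 2 and 0, and ribosome supply genes 0 lower, by construction of the smaller table. Counting every symbol of the pattern gives 9 higher and 5 lower, because pseudogenes and kinases enter. No paired analysis was possible because values per library were not analysed here, and leaving out a library was not possible for the same reason.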

Other observations

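Rpl3 hosts small nucleolar RNAs in its introns. A list of 17 annotated genes held other hosts together with Snord43 and Snord83b of Rpl3 itself. Of these, 6 had a value (35.3%), 5 higher and 1 lower, beside 56.2% higher and 43.8% lower of all listed genes. The list holds noncoding genes, so the 15.2% listed of protein-coding symbols is not a like background. No share of noncoding genes was counted. Snhg5 was at a log2 fold change of 1.20, Snhg18 at 1.12, Epb41l4aos at 0.69 and Snhg14 at -0.94 in the authors' deposited table. Gas5 and Zfas1, whose spliced transcripts are noncoding, were at 0.66 and 0.64 in the authors' deposited table. Snord43 and Snord83b had no value analysed here.

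Of the 10 nearest genes around Rpl3 none was listed. Pdgfb is the only protein-coding gene among them, and the others are noncoding RNA genes, some within Rpl3 itself. Of the 10 around Rpl3l, protein-coding and noncoding, 2 were listed. The share of 15.2% listed holds for protein-coding symbols and is not a like background for either set. The 2 listed ones were Ndufb10, a respiratory complex I subunit gene, at -0.62 and Fahd1 at -0.75 in the authors' deposited table. Rps2, another ribosomal protein gene close to Rpl3l, had no value analysed here. The 5' part of the annotated Rpl3 gene overlaps Syngr1 on the opposite strand by 535 bases, and Syngr1 was not listed.

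The symbols of the pattern that encode no ribosomal protein include 4 kinases. Rps6ka2 was at -1.14, Rps6kl1 at -0.62, Rps6ka5 at -0.62 and Rps6ka4 at 0.65 in the authors' deposited table. Pseudogene symbols without a listed parent were Rps26-ps1 at 0.73, Rpl10-ps6 at 0.59 and Rpl36-ps2 at -0.44 in the authors' deposited table.

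By closeness of log2 fold change in this 1 comparison, the genes most like Rpl3 were Zfp354c, Nucb2 and Clcn5, all at 1.05 in the authors' deposited table. Those most like Rpl3l were Mrgprh at -1.68 and the globin genes Hba-a1 at -1.68 and Hbb-bs at -1.71 in the authors' deposited table.

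Of 14 genes of myogenesis and myoblast fusion, a process in which Rpl3l has been studied in skeletal muscle, none had a value analysed here. The share listed of all protein-coding symbols was 15.2%. Whether the left ventricle expresses these genes was not examined.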
